A study of Homo sapiens with 4 samples.

Results

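The red cell membrane and glycophorin genes described here were GYPB, GYPC, GYPE, RHAG, SLC4A1, ANK1, SPTB and EPB42, 8 of the 58365 rows of the deposited expression table. A row belonged to the set when its symbol was one of these names, and each symbol had 1 row. RNA-seq was performed on 4 libraries of cells derived from H1, a widely used human embryonic stem cell (hESC) line, at day 8 of stepwise hematopoietic differentiation. All cells received activin A and BMP4 first, and VEGF with bFGF afterwards. During the last 3 days, the SB group (2 libraries) also received SB431542, an inhibitor of the TGFβ type I receptor, whereas the DMSO group (2 libraries) did not. No genotype difference separated the groups. The study describes a sort of CD31+ cells before sequencing, a step that the sample labels leave out, and the labels do not say whether replicates 1 and 2 were separate cultures, so p-values reflect the spread between these libraries only. The comparison asks how inhibition of TGFβ signaling during endothelial-to-hematopoietic transition was accompanied by changes in the RNA of the red cell surface.

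The red cell membrane is a lipid bilayer held to a spectrin skeleton by vertical bridges. One bridge runs from band 3, the anion exchanger encoded by SLC4A1, through ankyrin (ANK1) and protein 4.2 (EPB42) to β-spectrin (SPTB), and it carries the Rh-associated glycoprotein RHAG. Another runs from glycophorin C (GYPC) through protein 4.1 to the spectrin-actin junction, while the sialic acid-rich glycophorin B carries antigens of the MNS blood group system and GYPE is its close relative in a cluster of duplicated genes.

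Levels are given as FPKM, the fragments of a gene per kilobase of its transcript and per unit of library size, so that they can be compared between genes of different length. Differences are on the log2(FPKM + 1) scale, as SB minus DMSO, and come from limma fitted to all 14909 genes with a mean of at least 1 FPKM in at least 1 group. The steps between the lowest values of single-exon genes placed the depth of the libraries between 19684405 fragments in SB replicate 1, the shallowest, and 25953389 in SB replicate 2. Of the tested genes, 20 (0.134%) passed an adjusted p of 0.05 by limma, 4 higher with SB and 16 lower. The median difference of all tested genes was 0.04. With 2 libraries per group, the smallest two-sided p of an exact permutation test is 0.333, so none was used.

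The 8 genes spanned the range from abundant to barely detected. GYPB had the highest mean over the 4 libraries at 106 FPKM, above 94.7% of tested genes. Its coding transcripts are short (360 to 521 bases), so this value depends strongly on the transcript length used. GYPB was followed by GYPC with 64.6 FPKM, GYPE with 42.6 FPKM and RHAG with 17.9 FPKM. ANK1 averaged 5.34 FPKM and SPTB 2.15 FPKM, the latter above only 17.2% of tested genes. EPB42 and SLC4A1 averaged 0.401 and 0.133 FPKM, under the minimum for testing. The ranges of neighbours in this order did not overlap, with the exception of GYPE with RHAG and EPB42 with SLC4A1. The glycophorins and RHAG were thus readily detected at day 8, whereas the 2 genes of band 3 and protein 4.2, which define the band 3 bridge, were close to 0.

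**Figure D1:**
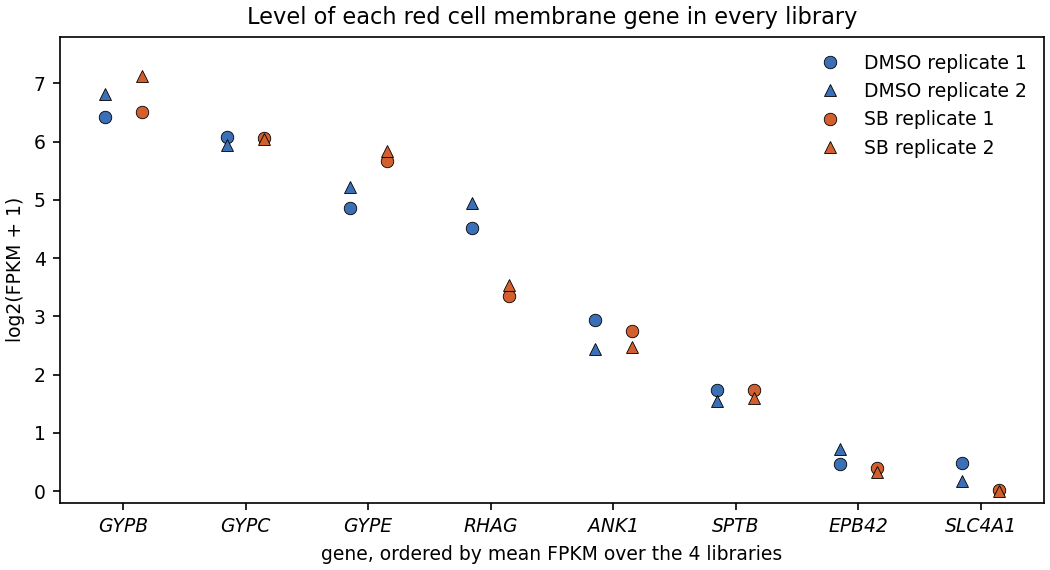
Level of each gene on the log2(FPKM + 1) axis in every library, with genes ordered by their mean; blue marks DMSO and orange SB, circles replicate 1 and triangles replicate 2. RHAG lies lower in both SB libraries and GYPE higher, while the points of GYPB, GYPC, ANK1 and SPTB overlap between groups.

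None of the 6 tested genes passed the adjusted threshold, set against 0.134% of all tested genes. At an unadjusted p under 0.05, GYPE was higher with SB (4.8% of all tested genes were) and RHAG was lower (5.16% were). GYPE was also the only tested gene of the set with both SB libraries above both DMSO libraries, a pattern found in 21.5% of tested genes, and RHAG the only one with both below, found in 16.0%. The median difference of the 6 genes was 0.03, near that of all tested genes. In bulk RNA, fewer cells of a type and less RNA per cell cannot be told apart.

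**Figure D2:**
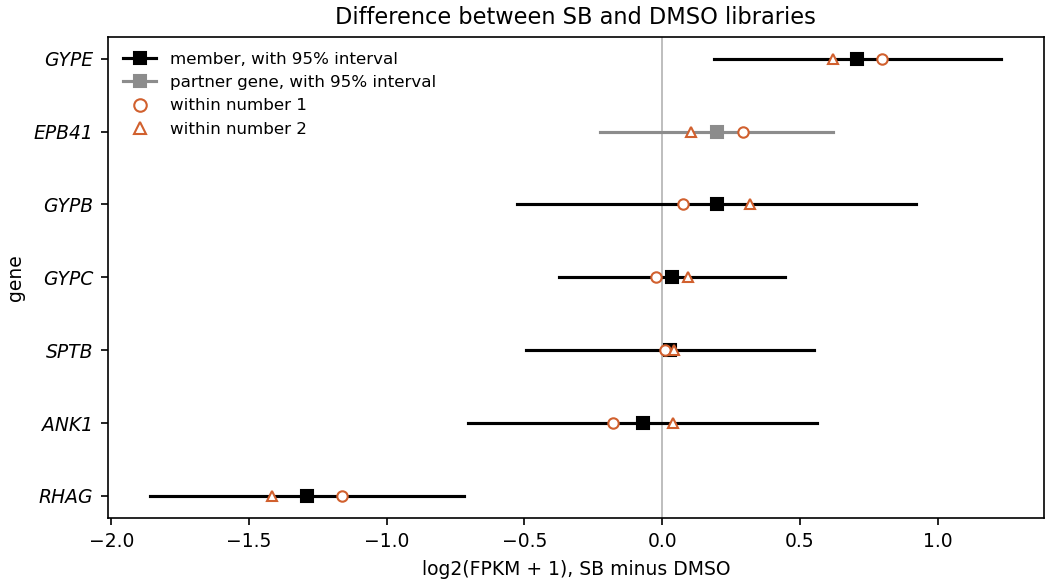
SB minus DMSO difference on the log2(FPKM + 1) axis for the 6 tested genes (black) and the partner gene EPB41 (grey), with 95% intervals from limma; open circles and triangles give the difference within replicate number 1 and 2. The intervals of RHAG and GYPE leave out 0. Both open symbols lie on the same side of 0 for these genes, and also for GYPB, SPTB and EPB41, whose intervals include 0.

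Among the surface glycoproteins, GYPB encodes glycophorin B, a carrier of the S and s antigens, and lies at chr4:143996104-144019345 on the minus strand (GRCh38). Its level was 85.3 and 111 FPKM in the DMSO libraries and 90.0 and 139 FPKM in the SB libraries. The groups overlapped, replicate 2 being higher than replicate 1 in both. The difference was 0.20 (SE 0.28, 95% interval -0.53 to 0.92, n = 2 per group, adjusted p = 0.916 by limma). The interval is wide and holds changes of up to 0.92 upward.

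GYPC, at chr2:126655933-126696675 on the plus strand, encodes glycophorin C, which anchors protein 4.1 at the membrane and carries the Gerbich antigens. It measured 67.0 and 60.7 FPKM with DMSO, and 66.0 and 64.8 FPKM with SB. Both SB values lay between the DMSO values. The difference of 0.04 (SE 0.16, 95% interval -0.37 to 0.45, adjusted p = 0.981 by limma) was smaller than the spread between the DMSO libraries.

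GYPE, at chr4:143870867-143905563 on the minus strand, is the member of the glycophorin cluster whose protein product is least established. It measured 28.1 and 36.4 FPKM with DMSO, and 49.5 and 56.5 FPKM with SB. Both SB libraries lay above both DMSO libraries, and the means were 32.3 ± 5.88 and 53.0 ± 4.94 FPKM (SD, n = 2 each), a ratio of 1.64. The difference was 0.71 (SE 0.20, 95% interval 0.19 to 1.23, unadjusted p = 0.0178, adjusted p = 0.354 by limma), with 0.80 within replicate number 1 and 0.62 within number 2.

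Within a library, the ratio of GYPB to GYPE does not depend on depth. It was 3.04 and 3.06 in the DMSO libraries, and 1.82 and 2.46 in the SB libraries. GYPB thus exceeded GYPE in FPKM in every library, and by less in both SB libraries than in either DMSO library. The longest coding transcripts have 521 bases for GYPB and 1684 for GYPE. At those lengths the values would stand for 417 to 858 fragments of GYPB and 960 to 2055 of GYPE. The order in FPKM thus rests on the transcript lengths used.

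GYPB and GYPE belong to a cluster of duplicated genes, and how the authors divided fragments between them is not stated. Of the stretches of 50 bases in GYPB transcripts, 15.4% also occurred in transcripts of other genes, 2.71% in those of GYPE. Only 1.25% of those of GYPE were shared, all with GYPB. No stretch of GYPC or RHAG transcripts occurred in another gene.

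The proximal promoters are shown for the cluster pair, since its copies can be compared base by base, and for RHAG, which had the lowest difference of the set. They are the 250 bases before the RefSeq transcription start on GRCh38.p14, at chr4:144019346-144019595, chr4:143905560-143905809 and chr6:49636840-49637089, all read 5′ to 3′ on the minus strand. Capitals mark GATA motifs, searched on both strands as the letters GATA with A or T before them and A or G after them.
GYPB: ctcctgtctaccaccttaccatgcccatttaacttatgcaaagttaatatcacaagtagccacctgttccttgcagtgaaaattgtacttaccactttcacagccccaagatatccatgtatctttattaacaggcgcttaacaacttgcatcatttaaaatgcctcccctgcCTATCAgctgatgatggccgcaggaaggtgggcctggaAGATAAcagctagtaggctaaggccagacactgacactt
GYPE: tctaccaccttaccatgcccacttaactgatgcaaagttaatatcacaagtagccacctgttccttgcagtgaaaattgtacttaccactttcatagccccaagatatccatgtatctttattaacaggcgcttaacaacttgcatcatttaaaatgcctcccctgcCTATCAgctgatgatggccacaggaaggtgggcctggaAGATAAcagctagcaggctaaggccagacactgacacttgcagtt
RHAG: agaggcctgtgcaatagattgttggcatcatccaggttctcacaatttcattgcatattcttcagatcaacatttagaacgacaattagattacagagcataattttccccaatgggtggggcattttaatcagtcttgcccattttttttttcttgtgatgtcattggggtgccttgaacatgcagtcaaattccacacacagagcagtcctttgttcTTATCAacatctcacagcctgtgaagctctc
The GYPB window ends at the more downstream of 2 RefSeq starts. It aligned with the GYPE window over 244 bases, of which 239 (98.0%) were identical. The differences, with the GYPB base first and positions counted from 1 at the 5′ end of the GYPB window, were T28C, T35G, C101T, G193A and T225C, and none fell in a capital motif. Both windows held 2 GATA motifs, whose first bases stood 77 and 39 bases before the start in GYPB and 83 and 45 bases before it in GYPE. RHAG held 1, beginning 31 bases before its start. A promoter sequence was found for 6 of the 8 genes (GYPB, GYPC, GYPE, RHAG, SPTB and EPB42), and the first window of each of the 6 held a GATA motif, compared with 22.9% of 27305 promoters of the same length. The GYPB and GYPE windows are near-identical copies, so they do not count as independent matches. Another SPTB window, at a different RefSeq start, held no GATA motif. The motif CACCC, searched on both strands, was in 5 of the 6 first windows and in 53.7% of all promoters. For GYPB the window counted was that of the upstream start, and the GYPB window shown holds no CACCC. These matches describe letters in the windows and not bound sites.

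RHAG, at chr6:49605158-49636839 on the minus strand, encodes the Rh-associated glycoprotein, which the Rh antigens need to reach the surface and which conducts ammonia. It measured 21.8 and 30.0 FPKM with DMSO, against 9.18 and 10.6 FPKM with SB. Each DMSO library was above 2 times either SB library, and the means were 25.9 ± 5.80 and 9.89 ± 1.01 FPKM (SD, n = 2 each), 2.62 times higher with DMSO. The difference was -1.29 (SE 0.22, 95% interval -1.86 to -0.72, unadjusted p = 0.00226, adjusted p = 0.169 by limma), with -1.16 within replicate number 1 and -1.42 within number 2. In the DMSO libraries the RHAG and GYPE levels overlapped, whereas in the SB libraries every GYPE value lay above every RHAG value.

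The genes of the Rh antigens themselves, RHD and RHCE, were under the minimum. RHCE measured 0.751 and 0.654 FPKM with DMSO, and 0.727 and 0.848 FPKM with SB. RHAG exceeded RHCE in every library, by 12.6 and 12.5 times with SB and by more in both DMSO libraries, up to 45.9 times. The 2 Rh genes are near-identical copies, so their split is uncertain.

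SLC4A1, at chr17:44248385-44268141 on the minus strand, encodes band 3, the exchanger of chloride and bicarbonate and the most abundant protein of the mature red cell membrane. It measured 0.396 and 0.127 FPKM with DMSO and 0.0109 FPKM in SB replicate 1, and was listed at 0 in SB replicate 2. If all of these came from its longest coding transcript of 4958 bases, they would stand for 45, 14, 1 and 0 fragments. Both SB libraries lay below both DMSO libraries, but the gene was too low for the test and no fold is given. Its broadly expressed relative SLC4A2 was present at 33.7 to 68.9 FPKM.

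ANK1, at chr8:41653220-41896762 on the minus strand, encodes the ankyrin that ties band 3 to β-spectrin. It measured 6.63 and 4.42 FPKM with DMSO, and 5.74 and 4.57 FPKM with SB. The SB values lay between the DMSO values, and the difference was -0.07 (SE 0.24, 95% interval -0.71 to 0.56, adjusted p = 0.975 by limma). Its paralog ANK3 was 1.06 to 2.40 times as high in the same libraries, so RNA of both ankyrins was detected. Coding transcripts of ANK1 run from 525 to 8478 bases, and the ratio depends on the transcript lengths used.

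SPTB, at chr14:64746283-64879883 on the minus strand, encodes the β chain of erythroid spectrin. It measured 2.32 and 1.93 FPKM with DMSO, and 2.34 and 2.02 FPKM with SB. The 4 values formed pairs by replicate number and not by group, and the difference was 0.03 (SE 0.20, 95% interval -0.49 to 0.55, adjusted p = 0.990 by limma). Its nonerythroid paralog SPTBN1 was 42.7 to 59.7 times as high. Of the 50-base stretches of SPTB transcripts, 30.9% also lay in transcripts of PLEKHG3, a gene on the opposite strand that overlaps its 3′ end. PLEKHG3 measured 22.0 and 18.3 FPKM with DMSO, and 36.9 and 30.1 FPKM with SB. Whether counting used strand is not stated, so the low SPTB values could not be separated from those of PLEKHG3.

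EPB42, at chr15:43106225-43221283 on the minus strand, encodes protein 4.2, which binds band 3 and ankyrin. It measured 0.383 and 0.644 FPKM with DMSO, and 0.321 and 0.258 FPKM with SB. If they came from its longest coding transcript of 2467 bases, these values would stand for 20, 33, 14 and 15 fragments. Both SB libraries lay below both DMSO libraries, by little, and the gene was not tested. Its deposited locus also spans TMEM62 and CCNDBP1, and 13.2% of its 50-base stretches occurred in the overlapping transcript AC068724.4. TGM2, the transglutaminase of the family to which protein 4.2 belongs, was present at 74.1 to 116 FPKM. That is 120 to 339 times EPB42, a ratio that rests on the very low EPB42 values.

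EPB41 encodes protein 4.1, the skeletal partner of glycophorin C. It was abundant at 49.0 and 55.9 FPKM with DMSO and 60.3 and 60.2 FPKM with SB. Its difference was 0.20 (SE 0.16, adjusted p = 0.808 by limma).

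Further membrane genes were examined by role, with 46 listed, 38 tested and 0 past the adjusted threshold. At an unadjusted p under 0.05, 8 of the 38 were higher with SB (4.8% of all tested genes were) and 4 lower (5.16% were), and their median difference was 0.02. Among 12 tested partners of the membrane skeleton, 4 were higher and 1 lower at the same threshold, beside the same shares of all tested genes. The lowest p belonged to TPM1, a tropomyosin, at 66.1 and 71.7 FPKM with DMSO against 36.8 and 35.5 FPKM with SB (difference -0.91, adjusted p = 0.170 by limma). On the higher side stood DMTN, which encodes the actin-bundling protein dematin (0.91, adjusted p = 0.451 by limma), STOM, which encodes stomatin (0.72, adjusted p = 0.314), and ACTB, β-actin (0.60, adjusted p = 0.270).

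Among 11 tested blood group antigens and partners of the band 3 or Rh complex, 1 was higher and 1 lower at an unadjusted p under 0.05, counts near the shares of all tested genes (4.8% and 5.16%). CD47, a "do not eat me" signal that associates with the Rh complex, measured 40.9 and 40.7 FPKM with DMSO and 64.8 and 69.8 FPKM with SB (0.71, adjusted p = 0.247 by limma), opposite in direction to RHAG. ART4, which carries the Dombrock antigens, had a difference of -0.83 (adjusted p = 0.411) on the lower side, followed by SEMA7A, a semaphorin that carries the John Milton Hagen antigen (-0.66, adjusted p = 0.663). ICAM4, the Landsteiner-Wiener glycoprotein, had a difference of 0.59 (adjusted p = 0.547).

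Among 15 tested transporters and channels, 3 were higher and 2 lower at an unadjusted p under 0.05, and 0 passed the adjusted threshold. Over all tested genes the shares were 4.8% and 5.16%. ABCG2, a porphyrin and urate exporter that carries the Junior antigen, measured 4.68 and 5.68 FPKM with DMSO and 16.1 and 15.3 FPKM with SB. Its difference of 1.44 (adjusted p = 0.0969 by limma) was the highest of the 3 lists. AQP1, the water channel of the Colton antigens, measured 4.78 and 5.21 FPKM with DMSO and 1.66 and 1.63 FPKM with SB, with a difference of -1.18 (adjusted p = 0.141). SLC12A4, a potassium-chloride cotransporter (-0.83, adjusted p = 0.259), and ABCC4, an exporter of cyclic nucleotides (0.73, adjusted p = 0.465), followed.

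The 12 tested paralogs with broad expression had a median difference of -0.15, with 0 higher and 2 lower at an unadjusted p under 0.05 (4.8% and 5.16% of all tested genes). These 2 were EPB41L1 (-0.57, adjusted p = 0.388 by limma) and EPB41L3 (-0.50, adjusted p = 0.493), relatives of protein 4.1, followed by ANK3 (-0.39, adjusted p = 0.702) and SPTAN1 (-0.27, adjusted p = 0.710).

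Of 12 listed regulators of erythroid genes, 0 passed the adjusted threshold. At an unadjusted p under 0.05, 3 were higher (4.8% of all tested genes were) and 2 lower (5.16% were), and 5 had both SB libraries above both DMSO libraries (21.5% of all tested genes) and 2 both below (16.0%). GFI1B, a transcriptional repressor active in the erythroid and megakaryocytic lineages, measured 28.2 and 21.8 FPKM with DMSO and 76.3 and 64.5 FPKM with SB (1.47, adjusted p = 0.117 by limma). GATA1, the factor named for the GATA motif, measured 42.8 and 40.9 FPKM with DMSO and 63.0 and 62.7 FPKM with SB (0.58, adjusted p = 0.322). NFE2 was higher in both SB libraries (0.54, adjusted p = 0.433), and SOX6 lower in both (-0.71, adjusted p = 0.288).

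**Figure D3:**
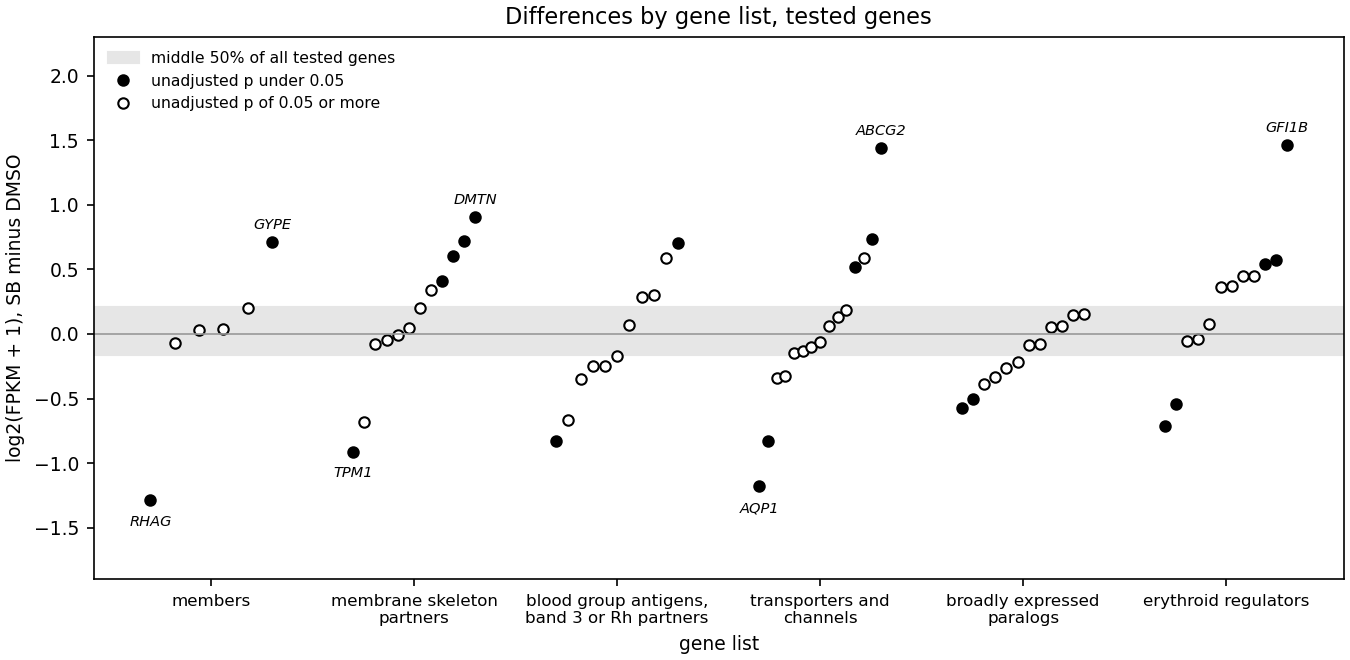
SB minus DMSO difference on the log2(FPKM + 1) axis for each tested gene of the set and of the 5 further lists, sorted within a list; filled points have an unadjusted p under 0.05 and the grey band holds the middle 50% of all tested genes. RHAG at -1.29 is the lowest point and GFI1B at 1.47 the highest, and every list has genes on both sides of 0.

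Markers of several cell types differed between the groups beside these results. Over all tested genes, 21.5% were higher in both SB libraries than in both DMSO libraries, 16.0% were lower in both, and 0.134% passed the adjusted threshold. The summed level of 10 erythroid markers was 1589 and 1933 FPKM with DMSO and 1267 and 1558 FPKM with SB, lower in both SB libraries. Of the 9 tested, HBA1, HBA2, HBE1, HBZ and ALAS2 were lower in both SB libraries, HEMGN was higher in both and the other 3 overlapped. AHSP, a defining hemoglobin chaperone, was at most 0.328 FPKM with DMSO and listed at 0 in both SB libraries. All 10 megakaryocyte markers were above in both SB libraries, with sums of 331 and 319 FPKM against 841 and 924 FPKM, and THBS1 passed the adjusted threshold (adjusted p = 0.0463 by limma). The sum of 8 myeloid markers was 122 and 107 FPKM against 293 and 274 FPKM, with 5 of 6 tested markers higher in both SB libraries and MPO at 0 in DMSO replicate 2.

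The 4 blood progenitor markers summed to 142 and 160 FPKM with DMSO and 197 and 204 FPKM with SB, and the 8 endothelial markers to 1260 and 1233 FPKM against 1162 and 1129 FPKM. Of the 3 tested progenitor markers, 2 were higher in both SB libraries (21.5% of all tested genes were). Among the endothelial markers 1 was higher in both and 2 lower in both (16.0% were). Their median difference was -0.09 and their lowest -1.72. PECAM1, which encodes CD31, was at 153 to 197 FPKM in every library. All 7 mesenchymal markers were lower in both SB libraries, beside 16.0% of all tested genes (sums of 305 and 262 FPKM against 118 and 115 FPKM). The 5 endoderm and liver markers summed to 156 and 171 FPKM with DMSO and 12.9 and 12.5 FPKM with SB, and AFP, TTR and APOA1 fell past the adjusted threshold. The part of these markers in the RHAG and GYPE values was not tested.

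Genes with the profile most like that of each tested gene were sought across the table, by the root mean square difference of centred log2(FPKM + 1) values over the 4 libraries. For RHAG they were AC092691.1 (0.022), APOB (0.035) and AL627309.8 (0.053), and only 15 genes lay within 0.1. For GYPE they were HMGB1P5 (0.0084), TMEM150C (0.020) and MFSD1 (0.024), with 126 genes within 0.1. GYPB was closest to KANSL1-AS1, PPM1A and ZNF772, and GYPC to WDR45B, MSRB2 and ACTR1B. RPS6KA1 and DUSP22 were among the closest to ANK1, and SPTB was closest to KIAA0141, MROH7 and CCDC17. Within 0.1 lay 335 genes for GYPB, 1524 for GYPC, 710 for ANK1 and 1423 for SPTB. Since the limit of 0.1 is fixed, a gene with larger differences between libraries tends to have fewer genes within it. The low count of RHAG therefore does not show that its profile is rare. With 4 libraries from 2 groups, likeness of this kind is a description only.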

How the data were processed

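RNA was measured in 2 DMSO and 2 SB libraries made with a TruSeq RNA kit. The authors deposited FPKM values, 1 column per library, which a service company produced from the reads. The submitters' processing notes name BWA, Bowtie, RSEM and the build hg19, with no versions or roles. The loci in the table, however, match GENCODE release 29 on GRCh38 (95.5% of identifiers had the same version, and 99.8% of these the same position), and coordinates are given on GRCh38, counted from 1. Strand use, annotation release and scaling between libraries are not given in the sources used here.

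Values were transformed to log2(FPKM + 1), a scale that understates differences of low genes. Genes with a mean of at least 1 FPKM in at least 1 group were tested (14909 of 58365 rows) by limma-trend (version 3.58.1, under R 4.3.3) with no term besides the group, two-sided p-values and Benjamini-Hochberg adjustment at 0.05. The study names no test for single genes of its RNA-seq data. The script was tested on simulated data in which 200 genes were changed.

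Depth was estimated from the FPKM steps of single-exon genes, where 95.7% to 96.8% of low values lay within 0.1 of a whole number of fragments. It limits the 2 genes under 1 FPKM most. Shared stretches of 50 bases were counted in GENCODE release 29 transcripts. Promoters came from RefSeq and were compared with Biopython 1.88.

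The 8 genes and all lists were chosen with earlier results of these data known. The text names all 8, and from each further list the genes past the adjusted threshold and then those with the lowest unadjusted p, up to 4. It adds EPB41 and the 3 genes most like each tested gene. Some genes that these rules select are not reported here. RHD, RHCE, SLC4A2, SPTBN1, TGM2, PLEKHG3, AHSP and the cell type markers were named in addition, after their values were seen. Alternatives covered the replicate number as a block, filters, pseudocount, scaling, each library left out, and summed rows.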

Additional observations from a re-analysis of the deposited data

How the results depend on the processing

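The samples share replicate numbers, which the labels do not tie to a common culture. Deviations of same-numbered libraries from their group means correlated at 0.53 across tested genes, but with 2 pairs this does not establish pairing. With the replicate number as a block in limma, 1564 of 14909 genes passed the adjusted threshold in place of 20 (820 of them higher with SB, against 4 of 20), and 2 of the 1564 were in the set (RHAG, adjusted p = 0.00872, and GYPE, adjusted p = 0.0160). Of the single-gene differences named here 18 crossed the threshold under the block. The count of genes was 0 with no filter on low values (2739 at an unadjusted p under 0.05), 31 after quantile normalization, and 0 to 14 when leaving out 1 library in turn. The majority of lower genes among the 20 did not hold after adding the block, but did after quantile normalization (9 of 31 higher with SB). It varied between the fits with 1 library left out, which leave only 1 library in a group. None of the settings other than the block brought a member past the threshold.

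RHAG kept its direction in 11 of 11 alternatives (-1.51 to -1.07), as did GYPE (0.53 to 0.89), but most of these could not have reversed it. The block, the filters and the summed rows left both differences unchanged. Since their groups did not overlap, neither the pseudocount nor leaving out 1 library could change the sign. Quantile normalization (-1.32 and 0.66) and upper-quartile scaling (-1.30 and 0.69) could have, and did not. Apart from the block and the fits with 1 library left out, adjusted p by limma was at least 0.153 for RHAG and 0.344 for GYPE. With 1 library left out, 4 small differences changed sign. GYPB ranged from -0.11 without SB replicate 2 to 0.51, GYPC from -0.035 without DMSO replicate 2 to 0.11, ANK1 from -0.32 to 0.18 (above 0 without DMSO replicate 1, and 0.067 without SB replicate 2), and SPTB from -0.061 to 0.12 (below 0 without DMSO replicate 2, and -0.045 without SB replicate 1). Quantile normalization also turned GYPC to -0.0085. At a pseudocount of 0.1 the untested SLC4A1 and EPB42 differences were -1.67 and -0.63. The pseudocount sets such low values, and the FPKM in each library are the firmer description.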
